A study of Mus musculus with 6 samples.

Results

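Ret, Mycn, Insm1, Htr3a, Chrna3, Sctr and Chgb were grouped as sympathetic neuroblast genes, and are described here in N2a cells, a mouse neuroblastoma line. Whether each is typical of that cell type was not tested. They are 7 of 11609 mRNA genes listed, found by gene symbol, and were chosen by their measured values: the FPKM of each was lower after RSL3 in these same libraries. All 6 libraries came from N2a cells differentiated with 10 µM retinoic acid in medium with 2% serum, renewed daily for 96 h. In 3 libraries the cells had received the solvent DMSO, and in 3 they had received 5 µM RSL3 for 24 h. RSL3 inhibits the lipid peroxide-reducing enzyme GPX4 and induces ferroptosis. The labels do not say if replicates were separate cultures, so p-values measure only the spread between these libraries. As the cells are 1 line in bulk culture, fewer cells of a kind and less RNA per cell cannot be told apart.

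Sympathetic neuroblasts arise from the neural crest under transcription factors such as HAND2 and GATA3, and their tumours often keep this programme. RET is the signalling receptor tyrosine kinase for ligands of the GDNF family, which reach it through GPI-anchored co-receptors. MYCN is a MYC family transcription factor that pairs with MAX and is amplified in aggressive neuroblastoma. INSM1 is a zinc finger repressor of neuroendocrine progenitors. HTR3A and CHRNA3 are subunits of cation channels of the Cys-loop family, gated by serotonin and by acetylcholine. SCTR, the secretin receptor, couples to cyclic AMP, and CHGB is a granin packed into dense-core granules.

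The promoters of 3 of the 7 genes had an entry in the RefSeq table (build GRCm38.p6), and they are shown because these genes were lower together. The search covered the 250 bases before each start, on both strands, over 32851 starts of 27025 genes. Capitals mark matches. For Mycn the stretch inside a GENCODE exon is left out. The Chgb window lies wholly within an exon of the longer GENCODE model, downstream of that model's start, so only 30 bases around its match are shown, and these are exon sequence in that model. The first is Chrna3 (chr9:55026563-55026812, minus strand), then Mycn (chr12:12941915-12942086, minus strand) and Chgb (chr2:132781559-132781588, plus strand).
Chrna3: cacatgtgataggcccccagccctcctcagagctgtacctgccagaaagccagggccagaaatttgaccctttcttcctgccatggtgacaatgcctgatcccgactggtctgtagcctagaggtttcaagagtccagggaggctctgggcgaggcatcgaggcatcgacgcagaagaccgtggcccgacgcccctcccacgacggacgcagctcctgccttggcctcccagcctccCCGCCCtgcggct
Mycn: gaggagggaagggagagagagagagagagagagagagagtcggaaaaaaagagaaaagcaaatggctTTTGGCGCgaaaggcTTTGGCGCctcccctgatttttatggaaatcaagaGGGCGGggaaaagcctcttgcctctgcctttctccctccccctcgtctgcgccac
Chgb: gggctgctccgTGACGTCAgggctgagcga

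The Chgb window held the cyclic AMP response element TGACGTCA, 72 to 65 bases before the RefSeq start, and 1.55% of all windows hold it. Mycn had TTTGGCGC, a core of E2F sites, at 183 to 176 and at 168 to 161 bases before the start, and 0.417% of windows hold it; this motif was added after the sequence was seen. The GC box GGGCGG occurred in all 3 windows, and 32.7% of windows hold it. The MYC-type E-box CACGTG, the E-box CAGCTG and TATAAA were in none of the 3 windows, and 6.02%, 13.0% and 12.4% of all windows hold them. No motif searched is contained in another. GC content was 72.8% for Chgb, 63.2% for Chrna3 and 54.8% for Mycn, against a median of 52.4%. For Ret, Insm1, Htr3a and Sctr no promoter is shown.

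The deposited level of a gene is its FPKM, which is scaled to transcript length and library size and can so be compared between genes. Summed mRNA values ran from 220605 to 225295 FPKM in the DMSO libraries and from 200135 to 213765 FPKM in the RSL3 libraries. The main fit applied no further scaling, and read depth is unknown. Markers of sympathetic neuroblasts were read for the name neuroblast, and the label "Neuron" was not tested. Of 24 sympathetic genes 16 were listed, with Hand2 at 119 FPKM and Phox2a at 88.3 FPKM on average with DMSO, while Th, the first enzyme of catecholamine synthesis, stood at 0.803 FPKM. Transcripts of other cells were looked for as well. The 5 Schwann lineage markers listed of 10 summed to between 27.2 and 34.6 FPKM with DMSO and between 12.2 and 31.5 FPKM with RSL3. The 6 mesenchymal markers listed of 10 summed to between 94.0 and 112 FPKM and between 89.9 and 97.0 FPKM, mostly Vim. The 2 blood and immune markers listed of 11 summed to under 1 FPKM in each library. In limma 0 of 4 tested Schwann lineage markers and 0 of 4 tested mesenchymal markers passed an adjusted p of 0.05. All 4 mesenchymal values were negative, with a median log2 difference of -0.37, and 2 had an unadjusted limma p under 0.05. All 21 liver markers were listed, summing to between 96.1 and 134 FPKM in the DMSO libraries and between 34.8 and 50.0 FPKM with RSL3. Of 18 tested, 17 were lower in limma at an adjusted p under 0.05, beside 3.92% of all tested genes. The lists were chosen with earlier results of these data known. No marker list holds any of the 7 genes, and the part of these markers in the results below was not tested. The RSL3 libraries differed in base composition. Each replicate's difference from the mean of the other RSL3 libraries was correlated with transcript GC content across genes. The values were 0.64, -0.60 and -0.23 for replicates 1, 2 and 3. Genes are not independent replicates. Each library also enters the differences of the others, so these correlations are not separate observations.

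**Figure D1:**
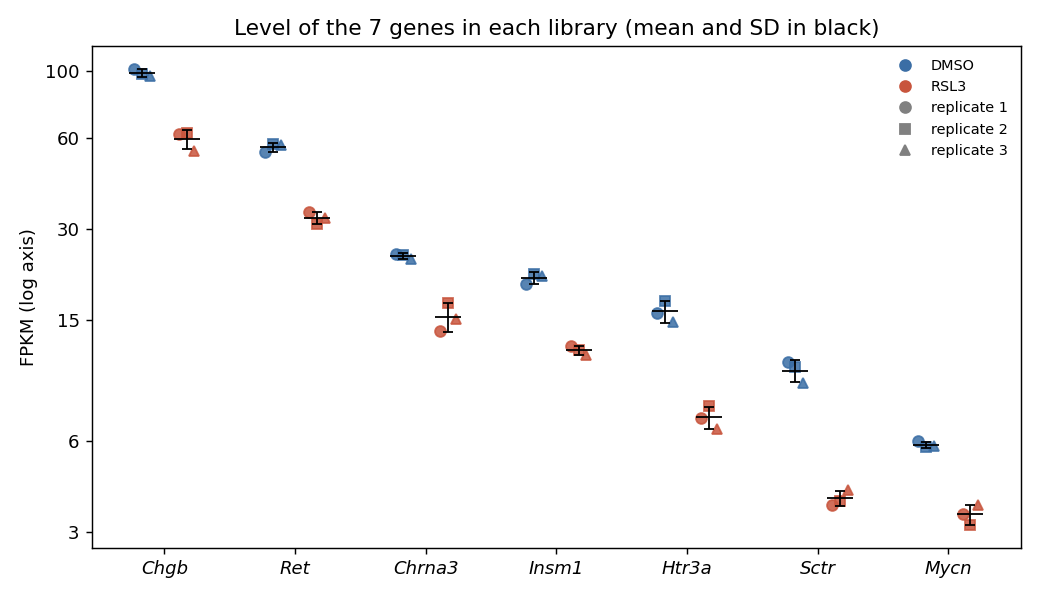
FPKM (log axis) of the 7 genes in each of the 6 libraries, with DMSO in blue and RSL3 in red, symbols for replicates, and black bars for the mean and SD of 3 libraries. Chgb is the most abundant at 98.4 FPKM with DMSO and Mycn the least at 5.83 FPKM, and the groups are apart for each gene.

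In every one of the 7 genes all 3 RSL3 libraries lay below all 3 DMSO libraries. Since the genes were picked for this contrast, the count is a description without a test; 19.6% of the 10590 tested mRNA genes show the same separation. With limma at an adjusted p under 0.05, 6.38% of tested genes were called, 3.92% as lower with RSL3, and no p is given for the 7. The median of their differences was -0.75 on the log2(FPKM + 1) scale, with a range of -1.20 to -0.62, against a median of -0.031 over all tested genes. On the linear scale RSL3 means were between 0.378 and 0.628 of the DMSO means.

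Ret ranked among the abundant mRNAs of these cells, above 93.9% of tested genes with DMSO. The gene (ENSMUSG00000030110.13, chromosome 6, 118151745 to 118197718, minus strand) read 53.8, 57.1 and 56.9 FPKM in DMSO replicates 1 to 3 and 34.1, 31.1 and 32.6 FPKM in RSL3 replicates 1 to 3. The highest RSL3 value belonged to replicate 1, and the lowest DMSO value was still 1.58 times that. Means were 56.0 ± 1.85 FPKM and 32.6 ± 1.50 FPKM (SD, n = 3), 41.7% lower with RSL3, with a log2 difference of -0.76 ± 0.06 (SE). Each SE of a log2 difference here and below is the moderated one of the limma fit, which draws on all tested genes.

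Mycn was the least abundant of the 7 genes, near the middle of all tested genes, with 41.9% of them below it. Its gene (ENSMUSG00000037169.15, chromosome 12, 12936093 to 12941914, minus strand) read 5.98, 5.74 and 5.76 FPKM with DMSO and 3.45, 3.17 and 3.68 FPKM with RSL3. The DMSO libraries agreed closely, with a coefficient of variation of 2.24%, and that of the RSL3 libraries was 7.56%. The means of 5.83 ± 0.13 and 3.43 ± 0.26 FPKM (SD, n = 3) differ by 41.1% and by -0.62 ± 0.08 (SE) on the log2 scale. The added 1 FPKM shrinks this difference most among the 7 after Sctr: the log2 ratio of the means themselves was -0.76.

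Insm1, a gene of 1 exon (ENSMUSG00000068154.5, chromosome 2, 146221921 to 146225020, plus strand), had the most even RSL3 values of the set. It read 19.7, 21.4 and 21.0 FPKM with DMSO and 12.3, 12.0 and 11.5 FPKM with RSL3. Its transcript is also the richest in GC of the 7, at 62.0%, where the median of tested genes was 50.0%. Means were 20.7 ± 0.88 and 11.9 ± 0.40 FPKM (SD, n = 3), with a log2 difference of -0.75 ± 0.07 (SE). With trends on length and GC removed, an alternative chosen after seeing the data, the difference was -0.84.

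Htr3a, which forms serotonin-gated channels on its own or with HTR3B, was reduced more than Chrna3. The gene (ENSMUSG00000032269.8, chromosome 9, 48899213 to 48911099, minus strand) read 15.9, 17.4 and 14.8 FPKM with DMSO and 7.15, 7.79 and 6.58 FPKM with RSL3. In both groups replicate 2 was highest and replicate 3 lowest, and the groups were far apart. The means of 16.0 ± 1.29 and 7.17 ± 0.61 FPKM (SD, n = 3) give a 2.24 times higher level with DMSO and a log2 difference of -1.06 ± 0.09 (SE). The antisense gene Gm32335 overlaps Htr3a on the plus strand and had no entry among the mRNA or lncRNA values. The library kit is stranded, but the sources do not state if counting used the strand.

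Chrna3, the ligand-binding subunit of ganglionic nicotinic receptors, had the smallest relative difference and the widest RSL3 spread of the 7. The gene (ENSMUSG00000032303.7, chromosome 9, 55010111 to 55026562, minus strand) read 24.9, 24.7 and 23.9 FPKM with DMSO and 13.8, 17.1 and 15.2 FPKM with RSL3. RSL3 replicate 1 was the lowest, and the lowest DMSO library was 1.39 times RSL3 replicate 2. The log2 difference of -0.64 ± 0.09 (SE) comes from means of 24.5 ± 0.52 and 15.4 ± 1.68 FPKM (SD, n = 3). It was -0.57 without RSL3 replicate 1. Chrna3 sits between Chrna5 and Chrnb4 in a cluster of nicotinic genes. Chrna5, whose gene ends 2332 bases away on the other strand, was under 1 FPKM in every library. Chrnb4 had no entry among the mRNA or lncRNA values.

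Sctr was reduced the most. The gene (ENSMUSG00000026387.15, chromosome 1, 120006894 to 120063536, plus strand) read 10.9, 10.5 and 9.29 FPKM with DMSO and 3.69, 3.79 and 4.12 FPKM with RSL3. Every RSL3 library was below the lowest DMSO library by at least 2.25 times. Its means of 10.2 ± 0.84 and 3.87 ± 0.23 FPKM (SD, n = 3) differ 2.64-fold, and the log2 difference was -1.20 ± 0.09 (SE), or -1.38 with a pseudocount of 0.1. Of all tested genes, 0.312% had a lower difference.

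Chgb was the most abundant of the 7 and stood above 96.8% of tested genes with DMSO. The gene (ENSMUSG00000027350.8, chromosome 2, 132781278 to 132795079, plus strand) read 102, 97.8 and 95.8 FPKM with DMSO and 61.9, 62.1 and 54.4 FPKM with RSL3. RSL3 replicates 1 and 2 were nearly equal and replicate 3 was lower. Means of 98.4 ± 2.93 and 59.5 ± 4.39 FPKM (SD, n = 3) gave a log2 difference of -0.72 ± 0.07 (SE).

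The order of levels was Chgb, Ret, Chrna3, Insm1, Htr3a, Sctr and Mycn in both groups. With DMSO no 2 neighbours in this order overlapped. With RSL3 the lowest gap was that of Sctr and Mycn, at 3.87 ± 0.23 and 3.43 ± 0.26 FPKM (SD, n = 3), whose nearest libraries were 3.69 and 3.68 FPKM. Within DMSO the coefficients of variation ran from 2.13% for Chrna3 to 8.25% for Sctr, and within RSL3 from 3.37% for Insm1 to 10.9% for Chrna3. The medians of the 7 were 3.30% and 7.38%, beside 5.57% and 11.5% over all tested genes. Picking genes for their falls can favour a small spread, and the tested genes include some near the filter of 1 FPKM. The comparison is thus a description only.

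**Figure D2:**
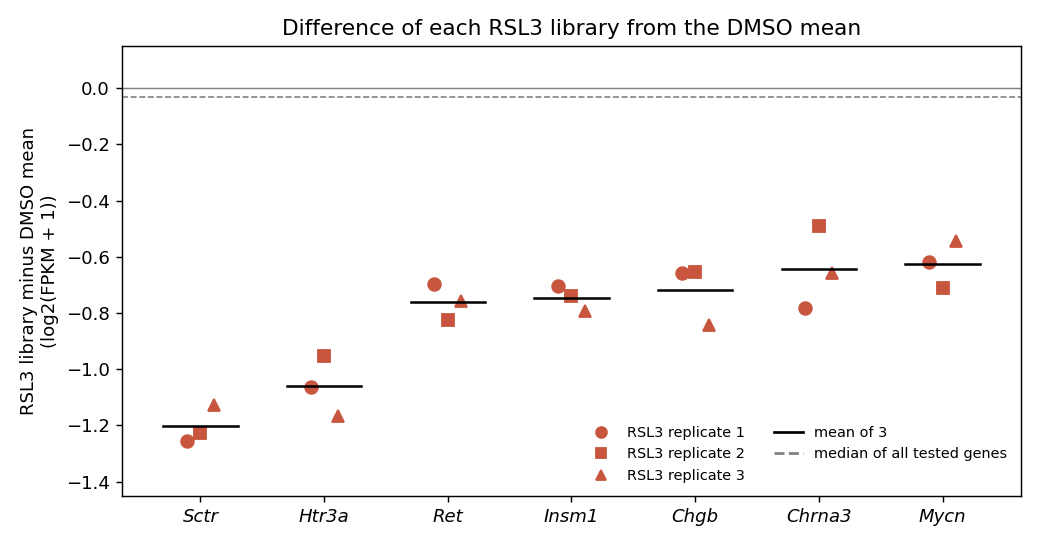
Difference of each RSL3 library from the DMSO mean, on the log2(FPKM + 1) scale, for the 7 genes, with the mean of 3 as a black line and the median of all tested genes dashed. Sctr and Htr3a lie lowest, at -1.20 and -1.06, and the other 5 lie between -0.76 and -0.62.

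The lower values were shared by the 3 RSL3 libraries. The median difference of the 7 from the DMSO mean was -0.70, -0.74 and -0.79 in RSL3 replicates 1, 2 and 3, where the medians of all tested genes were -0.098, 0.0055 and 0.0099. No single RSL3 library was lowest throughout: replicate 1 was lowest for Chrna3 and Sctr, replicate 2 for Ret and Mycn, and replicate 3 for Insm1, Htr3a and Chgb. Leaving out any 1 of the 6 libraries gave medians between -0.78 and -0.72. The 7 genes were picked for their falls in these same libraries, which favours such agreement, so it is a description only. Transcripts of the 7 had a median length of 2740 bases and a median GC content of 53.9%, beside 3363 bases and 50.0% over all tested genes. They lie on 5 chromosomes, with Insm1 and Chgb on chromosome 2 and Htr3a and Chrna3 on chromosome 9. No circRNA named by coordinates overlapped a member among 1414, and the 1754 circRNAs under circBase identifiers could not be placed.

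Related genes were then compared in limma, with Benjamini-Hochberg adjustment over all 10590 tested mRNAs. The 12 lists of partners and relatives hold 231 genes, of which 149 were tested, 15 fell and 2 rose with RSL3. That is 10.1% lower and 1.34% higher, beside 3.92% and 2.46% of all tested genes. The lists were written with earlier results of these data known, among them those of Aurka and Plk1, and are not independent evidence. The median log2 difference of these 149 genes was -0.081. Median-ratio scaling gave 13 lower and 4 higher, and quantile normalization 11 lower and 4 higher. Without DMSO replicates 1, 2 or 3 the calls numbered 4, 3 and 4, and without RSL3 replicates 1, 2 or 3 they numbered 36, 17 and 4.

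**Figure D3:**
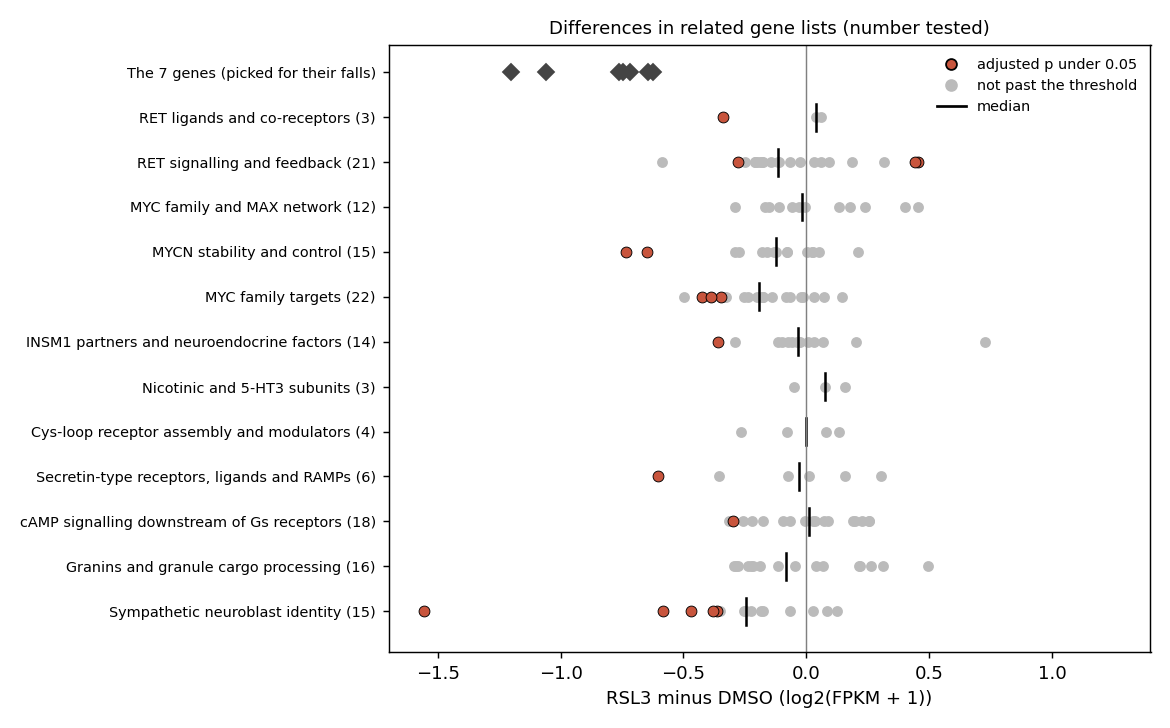
Difference between RSL3 and DMSO on the log2(FPKM + 1) scale for each tested gene of 12 related lists, with called genes in red, others in grey, and the list median as a black line; the 7 genes are diamonds. Most list medians are near 0, and that of sympathetic neuroblast identity is -0.25.

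The sympathetic identity genes were the list with the most calls: 5 of 15 fell and 0 rose, with a median of -0.25, and 12 of the 15 values were negative. Dbh, which turns dopamine into noradrenaline, fell from 5.46 ± 0.48 to 1.21 ± 0.24 FPKM (SD, n = 3; limma adjusted p = 0.00230). It passed in all 6 fits that left out 1 library. Gap43 of growth cones fell by 0.37 (adjusted p = 0.0181), and the vesicular monoamine transporter gene Slc18a2 and the cofactor gene Lmo1, named after their values were seen, fell by 0.47 and 0.38 (adjusted p = 0.0227 and 0.0347). These 3 calls were lost without DMSO replicate 1, 2 or 3 or RSL3 replicate 3, with adjusted p up to 0.112, 0.117 and 0.146, and that of Lmo1 also without RSL3 replicate 2, with median-ratio scaling, after quantile normalization and with no variance trend (adjusted p = 0.0643, 0.0895, 0.0946 and 0.0520). Left out singly, each DMSO replicate or RSL3 replicate 3 left 2 called genes in the list, RSL3 replicate 2 left 4, and the fit without RSL3 replicate 1 called 9.

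Around Ret, few of its ligands and co-receptors were found. Of 12 such genes 4 were listed and 3 tested. The co-receptor gene Gfra1 stood under the filter in every library, with means of 0.620 ± 0.08 for DMSO and 0.668 ± 0.05 FPKM for RSL3 (SD, n = 3). Ncam1, a cell adhesion molecule that can also bind GDNF, fell from 43.5 ± 1.95 to 34.1 ± 1.16 FPKM (SD, n = 3; limma adjusted p = 0.0232). The ligand gene Artn and the GDNF receptor-like gene Gas1 stood at 0.060 and 0.039 without passing (adjusted p = 0.834 and 0.797). Of 21 genes of RET signalling and feedback 2 rose and 1 fell, with a median of -0.12. Dok1, an adaptor that dampens tyrosine kinases, rose by 0.45 (limma adjusted p = 0.0218), and Dusp4, an ERK phosphatase, went from 59.5 ± 1.12 to 81.2 ± 5.85 FPKM (SD, n = 3; limma adjusted p = 0.0140). The docking protein gene Gab2 fell by 0.28 (adjusted p = 0.0497). The calls of Ncam1, Dok1 and Dusp4 were lost without DMSO replicate 1, 2 or 3 or RSL3 replicate 3 (adjusted p up to 0.121, 0.105 and 0.0781). That of Gab2 was lost without any library but RSL3 replicate 1 (up to 0.196), with the other pseudocounts and scalings, without the filter and without the variance trend. Left out singly, RSL3 replicate 1 gave 6 called genes of RET signalling, RSL3 replicate 2 gave 3, DMSO replicate 3 gave 1, and each other library 0.

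Among the relatives of Mycn, 0 of 12 genes of the MYC family and MAX network passed in limma, and 3 had an unadjusted p under 0.05. Myc, far more abundant than Mycn, read 71.0, 66.6 and 67.8 FPKM with DMSO and 67.9, 58.3 and 58.7 FPKM with RSL3, and the groups overlapped (-0.15 ± 0.08 SE, limma adjusted p = 0.264). Without RSL3 replicate 1 it passed at -0.22 (adjusted p = 0.0343). Mycl, named after its values were seen, was near 1 FPKM (-0.29, adjusted p = 0.0869), and passed with length and GC trends removed (-0.32, adjusted p = 0.0293). Max, the obligate partner, stood at 18.5 ± 3.85 and 17.7 ± 3.78 FPKM (SD, n = 3), a difference of -0.060 that was 0.12 without RSL3 replicate 3 and 0.096 without DMSO replicate 2.

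Of 15 genes that control MYCN or its stability 2 fell, both mitotic kinases. Aurka, whose product also stabilises MYCN protein, went from 36.4 ± 0.37 to 22.8 ± 0.27 FPKM (SD, n = 3; limma adjusted p = 0.00275) and passed in all 6 fits that left out 1 library. Plk1 fell by 0.73 (adjusted p = 0.0139), a call lost without DMSO replicate 2 or 3 or RSL3 replicate 3 (up to 0.0744). Of 22 MYC family targets 3 fell and 0 rose, with a median of -0.19, and 19 of the 22 values were negative. The nucleolar genes Fbl and Nop56 fell by 0.43 and 0.35 and the RNA polymerase I subunit gene Polr1b by 0.39 (limma adjusted p = 0.0184, 0.0287 and 0.0179). All 3 calls were lost without DMSO replicate 1, 2 or 3 or RSL3 replicate 3 (adjusted p up to 0.0922, 0.152 and 0.104), and that of Nop56 after quantile normalization. Left out singly, RSL3 replicates 1 and 2 each gave 5 called targets, and each other library 0.

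For Insm1, 1 of 14 partners and neuroendocrine factors fell and 0 rose, with a median of -0.033. The histone deacetylase gene Hdac1 went from 37.4 ± 1.01 to 28.9 ± 1.54 FPKM (SD, n = 3; limma adjusted p = 0.0217). That call was lost without DMSO replicate 1, 2 or 3 or RSL3 replicate 3 (adjusted p up to 0.121), and without RSL3 replicate 1 the list had 3 calls. Kdm1a, the demethylase that INSM1 recruits, stood at 33.3 ± 0.43 and 31.7 ± 3.00 FPKM (SD, n = 3; -0.074, limma adjusted p = 0.625), and at 0.012 after quantile normalization and 0.0039 without RSL3 replicate 1.

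**Figure D4:**
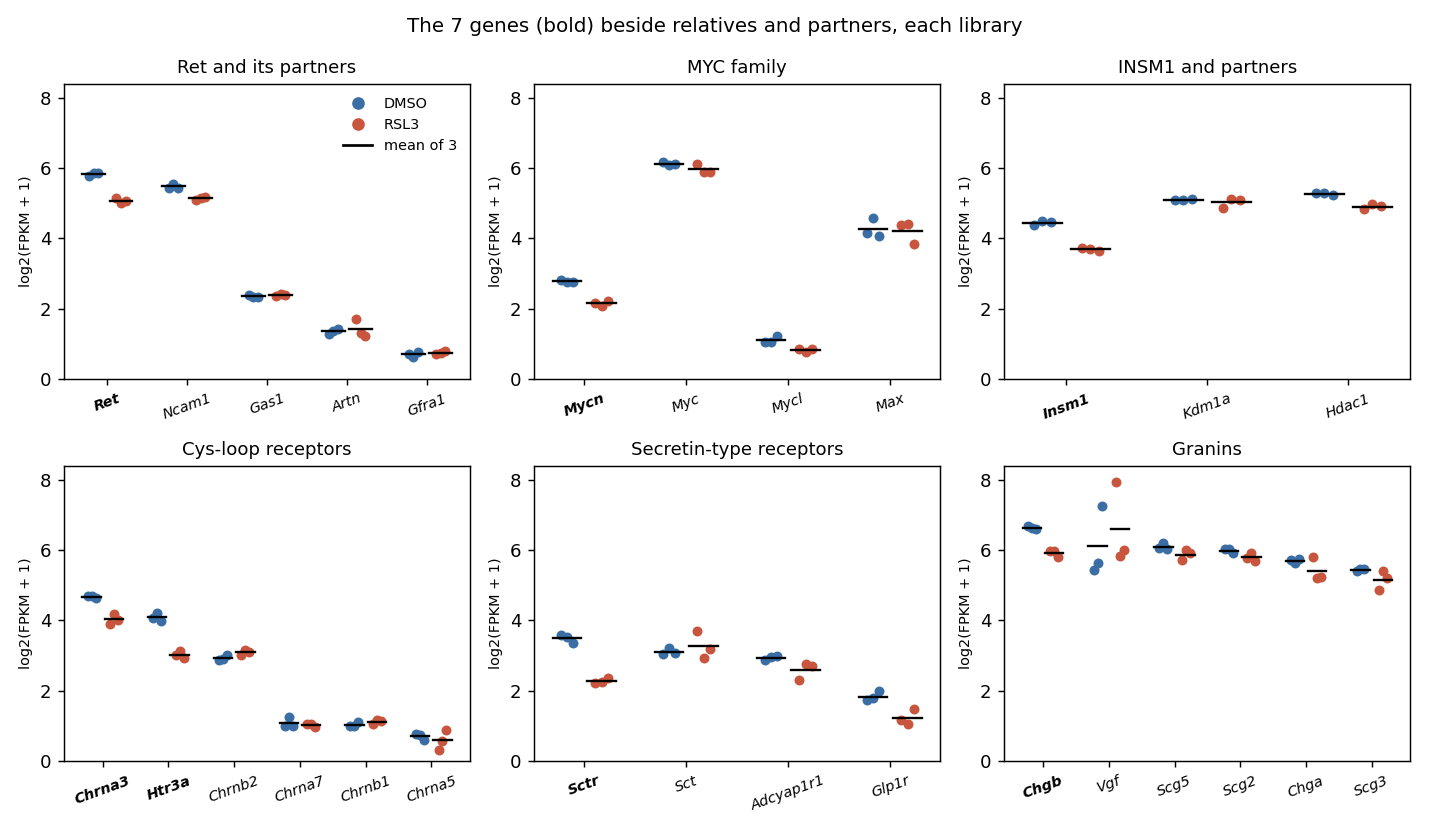
Log2(FPKM + 1) in each library for the 7 genes (bold) and relatives or partners, with DMSO in blue, RSL3 in red and black lines for means of 3 libraries. In the Cys-loop panel Chrna3 and Htr3a are lower with RSL3 while Chrnb2 stands at 0.16 without passing the test.

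The other channel subunits did not move with Htr3a and Chrna3 past the threshold. Of 16 nicotinic and 5-HT3 subunit genes besides them, 4 were listed and 3 tested, and 0 passed in limma, also at an unadjusted p under 0.05. Chrnb2, a partner of alpha subunits in neuronal receptors, read 6.30, 6.52 and 7.08 FPKM with DMSO and 7.08, 7.85 and 7.59 FPKM with RSL3, no RSL3 value below a DMSO value (0.16 ± 0.08 SE, limma adjusted p = 0.281). Chrna7 and Chrnb1 were near 1 FPKM in both groups (adjusted p = 0.788 and 0.612). Of 4 tested genes of assembly and modulation 0 passed in limma, and 0 had an unadjusted p under 0.05.

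In the secretin-type family around Sctr, 1 of 6 tested genes fell and 0 rose. The GLP-1 receptor gene Glp1r went from 2.57 ± 0.34 to 1.36 ± 0.37 FPKM (SD, n = 3; limma adjusted p = 0.0426), a call kept only without RSL3 replicate 3 and lost without each of the other 5 libraries (adjusted p up to 0.150). Sct, which encodes secretin itself, was expressed, at 7.67 ± 0.50 FPKM in DMSO libraries and 8.89 ± 2.71 FPKM after RSL3 (SD, n = 3; 0.16, limma adjusted p = 0.645), and stood at -0.052 without RSL3 replicate 1. The PACAP receptor gene Adcyap1r1, named after its values were seen, stood at -0.36 (adjusted p = 0.154). Of 18 genes of cyclic AMP signalling 1 fell and 0 rose, with a median of 0.011. It was Prkaca, the catalytic subunit of protein kinase A, at -0.30 ± 0.06 SE (limma adjusted p = 0.0421). The call was lost with median-ratio scaling, quantile normalization or no variance trend and without any library but RSL3 replicate 1 (adjusted p up to 0.177), which gave 3 calls.

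Beside Chgb, 0 of 16 tested granin and granule cargo genes passed in limma, and 6 had an unadjusted p under 0.05. Chga, the other chromogranin, read 51.5, 48.8 and 53.0 FPKM with DMSO and 54.4, 35.6 and 36.7 FPKM with RSL3. Its RSL3 replicate 1 lay above all DMSO libraries, unlike that of Chgb, and without it the difference was -0.49 (limma adjusted p = 0.00540) in place of -0.29 (adjusted p = 0.289). Scg2 stood at -0.19 (adjusted p = 0.175), and Scg3 and Scg5, named after their values were seen, at -0.28 and -0.22 (adjusted p = 0.224 and 0.168). Vgf, a neurotrophin-induced granin named likewise, varied most, from 42.0 to 152 FPKM with DMSO and from 56.2 to 246 FPKM with RSL3. Without RSL3 replicate 1 the granin list had 3 calls.

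By Pearson's r over the 6 libraries, the genes most like the mean profile of the 7 among 6681 genes of at least 5 FPKM were Bub1b, Aurka, Glipr2, Cndp2 and Stac, with r between 0.998 and 0.999. Bub1b and Aurka are mitotic kinase genes, Cndp2 encodes a cytosolic dipeptidase and Stac an adaptor of calcium channels. Bub1b read 44.8, 45.7 and 43.0 FPKM with DMSO and 29.9, 30.2 and 29.3 FPKM with RSL3. Stac had the lowest difference of these 5, -0.88, and Cndp2 the highest, -0.33. The 6 libraries hold the contrast by which the 7 genes were picked, and 27 of the 6681 genes reached an r of 0.99.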

How the data were processed

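Messenger RNA was read from 6 tables, 1 per library, of values that the authors deposited as FPKM. Per the submitters' processing notes, cutadapt, HISAT2 and StringTie (version 1.3.3) were used on build GRCm38; annotation release and filters are not stated there. CircRNA values were deposited by the authors under a CPM heading and treated as a signal, used only for overlap with the 7 genes. LncRNA tables (FPKM, deposited likewise) were searched for genes within 10000 bases of the 7, and held none. Groups came from the sample titles. Positions and transcripts are from GENCODE M21.

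The test was limma (version 3.58.1, R version 4.3.3), two-sided, RSL3 against DMSO, with a variance trend on mean level, Benjamini-Hochberg adjustment over all tested mRNAs and a threshold of 0.05. It used log2(FPKM + 1) and kept a gene if 3 or more libraries reached 1 FPKM. The fit was also run on simulated data with independent noise for each gene. That setting lacks the base composition differences of the RSL3 libraries, so it checks the code only. The members and lists were chosen with earlier results of these data known. Named were the 7 genes, fixed partners, up to 3 called genes per list and direction with the smallest p, and the 5 genes most like the 7; others are marked, and 1 called gene is not reported here by name. Alternatives were other pseudocounts, filters and scalings, no variance trend, a replicate block, and leaving out each library.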

Additional observations from a re-analysis of the deposited data

How the results depend on the processing

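All 7 genes kept a negative difference under every alternative that could move it. These were 2 other pseudocounts, 2 scalings, removal of length and GC trends, and leaving out each library. The replicate block cannot change a difference here, as both groups hold the same replicate numbers. Since the 7 genes were picked for that direction, keeping it is no sign of stability. Their median was -0.69 after quantile normalization. It ranged from -0.78 to -0.72 without single libraries. Calls among related genes, 17 in all, numbered 3 to 36 without single libraries, and those among all mRNAs, 676 in all, 145 to 1299. Fewer libraries lower the power of each such fit, and the larger counts came without RSL3 replicate 1. Removing length and GC trends, chosen after seeing the data, gave 44 and 1693 calls; the cause was not tested. Of all called mRNAs 261 were higher and 415 lower, against 350 and 329 after quantile normalization. Some values that did not pass turned sign: with trends removed Gas1 stood at -0.030, Artn at -0.012 and Chrna7 at 0.031; after quantile normalization Kdm1a stood at 0.012; without single libraries Artn ranged from -0.088 to 0.16, Max from -0.16 to 0.12, Kdm1a from -0.12 to 0.0039, Chrna7 from -0.095 to 0.032, Sct from -0.052 to 0.32 and Vgf from -0.18 to 1.07.

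The replicate numbers are shared between groups but no pairing is stated, and deviations of same-numbered libraries correlated at -0.15, 0.049 and -0.062, so they were not used as pairs. A replicate block leaves the median of the 7 at -0.75 by design, as both groups hold the same replicate numbers. With the replicate block 5 related genes and 253 mRNAs were called. The calls of Ncam1, Dok1, Dusp4, Gab2, Gap43, Slc18a2, Lmo1, Fbl, Nop56, Polr1b, Hdac1 and Prkaca were lost with it (limma adjusted p between 0.0548 and 0.142). Read depth is unknown, which limits genes near 1 FPKM most.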
